A study of Mus musculus with 2 samples.

Results

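The 8 microRNA genes described here are the 5 of the Mir200 family (Mir200a, Mir200b, Mir429, Mir200c and Mir141) and the 3 of the Mir183 cluster (Mir183, Mir96 and Mir182), picked by their GENCODE symbols from the 2202 microRNA genes that were counted. They were measured in small RNA below 30 bases from cortical tissue of the left hemisphere. The mice were females of B6CASTF1/J, the first-generation hybrid of C57BL/6J and CAST/EiJ, at 4 days of age. The series holds 1 group of 2 animals, numbered separately in the labels under a shared donor record, with 1 library each and no treatment named. No second condition was analysed here, so the libraries are compared only with each other and no test between groups was run.

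MicroRNAs are cut from hairpins and guide silencing complexes to messenger RNAs that pair with the seed, bases 2 to 8 of the mature strand. The Mir200 family is a hallmark of epithelia, where it represses Zeb1 and Zeb2, transcription factors that drive the change from epithelial to mesenchymal cells and that in turn repress the family through CACCTG boxes. In the nervous system it is known from the olfactory system and the pituitary. The Mir183 cluster is known from hair cells, photoreceptors and other sensory cells, and changes in the seed of Mir96 cause hearing loss.

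The mature strands known as the main products of these hairpins are shown because their seeds define which genes form a family. They are taken from RefSeq (GRCm38.p6, the build also called mm10), which held all 8 members, and the seed is in capitals.

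miR-200b-3p: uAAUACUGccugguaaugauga
miR-429-3p: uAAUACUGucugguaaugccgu
miR-200c-3p: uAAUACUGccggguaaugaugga
miR-200a-3p: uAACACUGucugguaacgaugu
miR-141-3p: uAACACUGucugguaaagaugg
miR-183-5p: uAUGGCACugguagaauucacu
miR-96-5p: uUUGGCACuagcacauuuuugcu
miR-182-5p: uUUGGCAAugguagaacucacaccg

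Mir200b, Mir429 and Mir200c share the seed AAUACUG, and Mir200a and Mir141 share AACACUG, which differs from it by U4C (counted from 1 at the 5′ end of the mature strand). Both seed groups are spread over 2 chromosomes. The Mir183 cluster holds 3 different seeds. That of Mir96 changes by C8A to that of Mir182 and by U2A to that of Mir183. Among 1738 mature strands in the RefSeq table, the single other strand with any of these seeds was miR-1271-5p, which shares that of Mir96, and its gene, Gm24195, had 0 reads in both libraries. The mature strands of Mir200a and Mir141 share a run of 16 bases with each other's hairpin. No mature strand of the other 6 genes shares more than 12 with a hairpin elsewhere.

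The family lies in 2 genomic clusters and the Mir183 cluster forms another, all on the minus strand (mm10, GENCODE M21, 1-based). Mir200b (ENSMUSG00000065549.3, chr4:156055681-156055750), Mir200a (ENSMUSG00000065400.1, chr4:156054896-156054985) and Mir429 (ENSMUSG00000065427.1, chr4:156053905-156053987) span 1846 bases of chromosome 4. All lie in an intron of Ttll10. They also lie within the noncoding Gm13648 of the same strand, Mir200b and Mir200a in its intron and Mir429 in its exon. Mir200c (ENSMUSG00000065462.3, chr6:124718322-124718390) and Mir141 (ENSMUSG00000065474.1, chr6:124717914-124717985) span 477 bases in an intron of the noncoding Gm15884, and Mir141 overlaps part of an exon of Gm29008. Mir183 (ENSMUSG00000065619.2, chr6:30169668-30169737), Mir96 (ENSMUSG00000065586.1, chr6:30169446-30169551) and Mir182 (ENSMUSG00000076361.1, chr6:30165918-30165992) span 3820 bases between Nrf1 and Rncr4 in that annotation, and within Mirc35hg in RefSeq. No other microRNA gene of the tables lies within 10 kb of any of the 8.

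Counts over microRNA genes summed to 3555469 reads in replicate 1 and 2761003 in replicate 2, 30.4% and 27.8% of all reads. A further 45.8% and 41.0% mapped to several places and were assigned to no gene. Levels are given as CPM, these counts scaled to a common total, so that 1 CPM is 3.56 reads in replicate 1 and 2.76 in replicate 2, and a count of 0 allows up to 0.844 and 1.09 CPM. Intervals are 95% and cover counting error only, not variation between animals. They treat reads as independent, which amplified reads are not, so they may be too narrow. Among markers of the labelled tissue, 13 neuron-enriched microRNAs summed to 92607 and 70656 CPM, led by Mir139, Mir149, Mir137 and Mir128-1. Mir124a-1, Mir124a-2 and Mir124a-3, copies of a neuronal microRNA with the same mature strand, had 0.724 to 3.62 CPM each.

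All 8 genes had reads in both animals and a higher level in replicate 1, by 3.62-fold to 102-fold, which exceeded counting error for all but Mir96. Together they had 8491 reads in replicate 1, or 0.239% (Wilson interval 0.234 to 0.244) of microRNA counts, and 434 in replicate 2, or 0.0157% (0.0143 to 0.0173). The Mir200 family held 0.193% and 0.00938%, which is 0.101% ± 0.130 (SD, n = 2), and the Mir183 cluster 0.0458% and 0.00634%, or 0.0261% ± 0.0279 (SD, n = 2). In both cases the SD exceeded the mean, so a mean over the 2 animals describes neither. In bulk tissue, fewer cells of a type and less RNA per cell cannot be told apart. At 2 CPM or more in both libraries, 6 of the 8 were detected, with Mir141 and Mir96 below that level in replicate 2.

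**Figure D1:**
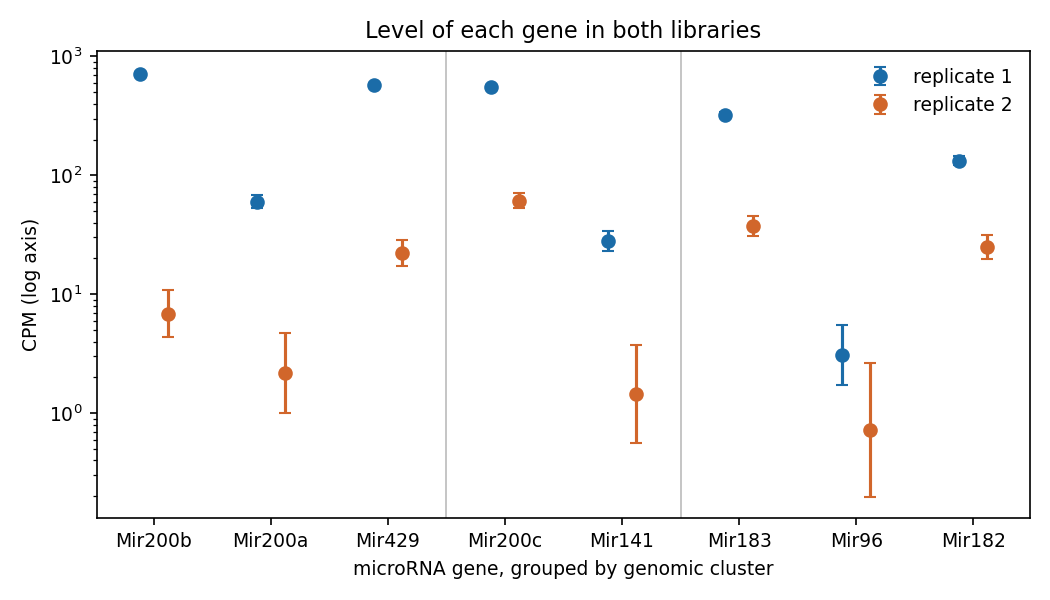
Level of each of the 8 genes in CPM (log axis) in replicate 1 (blue) and replicate 2 (orange), with 95% Wilson intervals that cover counting error only, and vertical lines between the genomic clusters. Every gene is higher in replicate 1, and the intervals of the libraries are apart for all but Mir96.

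Mir200b, which carries the seed AAUACUG, had 2529 reads in replicate 1 and 19 in replicate 2, or 711 and 6.88 CPM (359 ± 498, SD, n = 2). It stood at rank 124 of the 2202 genes by level in replicate 1 and at rank 356 in replicate 2. Its log2 ratio, replicate 2 over replicate 1 after TMM scaling (trimmed mean of M-values) and with 0.5 added to each count, was -6.67 (exact Clopper-Pearson interval -7.44 to -6.06). It was thus 102-fold higher in replicate 1, with an interval of 66.8-fold to 174-fold.

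Its cluster neighbours were also higher in replicate 1, by a smaller factor. Mir429, with the seed of Mir200b, had 2046 and 61 reads, or 575 and 22.1 CPM (299 ± 391, SD, n = 2), and was 26.2-fold higher (20.4 to 34.6). Mir200a, with the seed AACACUG, had 214 and 6 reads, or 60.2 and 2.17 CPM (31.2 ± 41.0), and was 25.9-fold higher (12.7 to 77.2). The ratios of these 2 genes differed by 0.01 on the log2 scale although their seeds differ. Without the 0.5 added they differed by 0.09, with an interval of -1.14 to 1.61, so 6 reads of Mir200a do not resolve how close they are.

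On chromosome 6, Mir200c, the other gene with the seed AAUACUG, had 1973 and 169 reads, or 555 and 61.2 CPM (308 ± 349, SD, n = 2), and was 9.15-fold higher in replicate 1 (7.84 to 10.8). Its neighbour Mir141, with the seed of Mir200a, had 100 and 4 reads, or 28.1 and 1.45 CPM (14.8 ± 18.9), and was 17.6-fold higher (7.44 to 73.5). The intervals of these 2 neighbours overlap. That of Mir200c lies wholly below those of all 3 genes on chromosome 4, so the same-seed genes Mir200b, Mir429 and Mir200c differed in their ratios beyond counting error.

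In the Mir183 cluster, Mir183 had 1145 and 104 reads, or 322 and 37.7 CPM (180 ± 201, SD, n = 2), and was 8.62-fold higher in replicate 1 (7.07 to 10.7). Mir182 had 473 and 69 reads, or 133 and 25.0 CPM (79.0 ± 76.4), and was 5.35-fold higher (4.18 to 7.04). Mir96 had 11 and 2 reads, or 3.09 and 0.724 CPM (1.91 ± 1.68), and its 3.62-fold difference had an interval from 0.943-fold to 40.1-fold, which includes equal levels. At this depth a difference of that size in Mir96 was not resolved.

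The order of the genes by reads was not the same in both libraries. In replicate 1 Mir200b was highest, then Mir429 and Mir200c, whose intervals overlap (551 to 601 and 531 to 580 CPM), then Mir183, Mir182, Mir200a, Mir141 and Mir96. In replicate 2 Mir200c was highest (52.7 to 71.2 CPM), followed by Mir183, Mir182 and Mir429, then Mir200b, Mir200a, Mir141 and Mir96. There the intervals overlap between Mir183 (31.1 to 45.6) and Mir182 (19.7 to 31.6), between Mir182 and Mir429 (17.2 to 28.4), between Mir200b (4.41 to 10.7) and Mir200a (0.996 to 4.74), and among the last 3 genes. Each small RNA read was taken as a whole mature strand, so no length correction was applied, and read lengths were not examined. Adapters join different ends unequally, and the order is one of reads, not of molecules.

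Set against all microRNA genes, the members lay at one edge of the difference between the animals. A summed count of at least 10 was reached by 525 genes. A difference of 2-fold or more towards replicate 1 was seen in 67 of them (12.8%), and in 8 of the 8 members. At 4-fold the numbers were 14 genes (2.67%) and 7 members, all but Mir96. The median log2 ratio was -3.66 over the members and -0.05 over all 525 genes, whose ratios had an SD of 1.03. Among the 308 genes that reached a summed count of 100, Mir200b, Mir429 and Mir200a had the 3 lowest log2 ratios, Mir141, Mir200c and Mir183 ranked 5, 6 and 7, and Mir182 ranked 9. The members were grouped with this difference already known, so these ranks describe the libraries and carry no test.

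**Figure D2:**
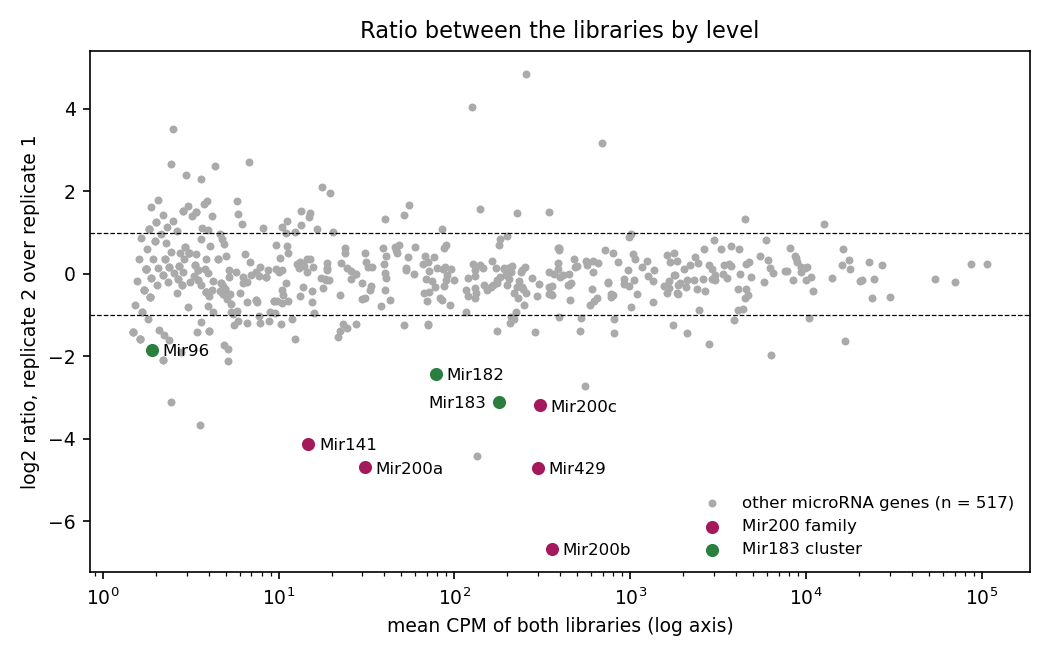
Log2 ratio of replicate 2 over replicate 1 (TMM-scaled, 0.5 added) against the mean CPM of both libraries (log axis) for genes whose summed count is at least 10, with the Mir200 family in magenta, the Mir183 cluster in green, 517 other genes in grey and dashed lines at a 2-fold difference. All 8 members lie below the lower line, and Mir200b is lowest at -6.67.

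The make-up of the chromosome 4 cluster differed between the libraries. Mir200b held 52.8% (Wilson interval 51.4 to 54.2) of the cluster's 4789 reads in replicate 1 and 22.1% (14.6 to 31.9) of its 86 reads in replicate 2, while Mir429 held 42.7% (41.3 to 44.1) and 70.9% (60.6 to 79.5). Mir200a held 4.47% and 6.98%, with overlapping intervals. There were 1.24 reads of Mir200b for each read of Mir429 in replicate 1 and 0.311 in replicate 2, a 3.97-fold difference (exact conditional interval of the odds ratio 2.33 to 7.06). Against Mir200a the shift was 3.73-fold (1.21 to 9.84), whereas Mir200a against Mir429 gave 1.06-fold (0.454 to 3.05). These ratios within a library need no scaling between libraries, and they compare the libraries, not conditions.

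Neighbouring microRNA genes differed less in most other places. Among 355 pairs on the same strand within 10 kb, each gene with a summed count of 100 or more, the log2 ratios of neighbours differed by a median of 0.50, and 90% of pairs differed by at most 1.38. Of these pairs 276 lay on chromosome 12, and pairs share genes, so they are not independent. The pair of Mir200b and Mir200a differed by 1.97 and ranked 5, that of Mir200b and Mir429 by 1.96 and ranked 6, and that of Mir200a and Mir429 ranked 350. Mir200c and Mir141 (0.94, rank 84) and Mir183 and Mir182 (0.69, rank 131) lay between.

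In the chromosome 6 clusters the shares moved less. Mir200c held 95.2% (94.2 to 96.0) of 2073 reads and 97.7% (94.2 to 99.1) of 173 reads of its cluster. Mir183 held 70.3% (68.0 to 72.5) of 1629 and 59.4% (52.0 to 66.4) of 175 reads, and Mir182 29.0% (26.9 to 31.3) and 39.4% (32.5 to 46.8). There were 2.42 reads of Mir183 for each read of Mir182 in replicate 1 and 1.51 in replicate 2, a 1.61-fold difference (1.14 to 2.24). Mir96, whose hairpin lies 116 bases from that of Mir183, held 0.675% and 1.14% of its cluster.

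**Figure D3:**
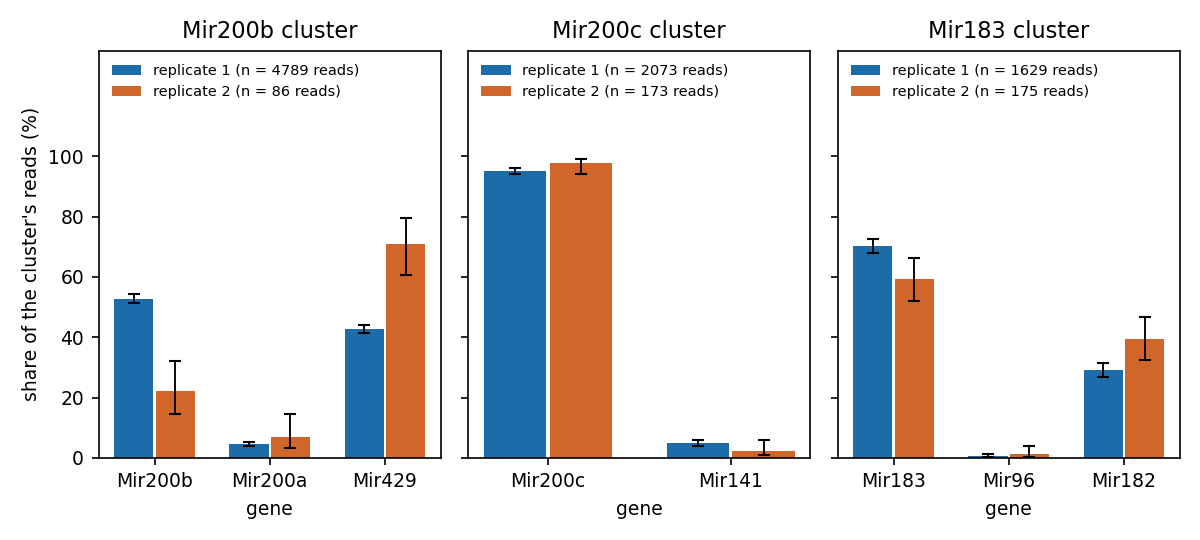
Share of the reads of each genomic cluster held by each of its genes, in percent, in replicate 1 (blue) and replicate 2 (orange), with 95% Wilson intervals for counting error. In the Mir200b cluster Mir200b leads in replicate 1 with 52.8% and Mir429 in replicate 2 with 70.9%, while Mir200c holds 95.2% and 97.7% of its cluster.

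Read by seed, 6548 reads in replicate 1 and 249 in replicate 2 came from genes with AAUACUG, a 20.6-fold difference after scaling (18.2 to 23.6), and 314 and 10 from genes with AACACUG, a 23.5-fold difference (13.2 to 52.0). Mir200b gave 38.6% (37.5 to 39.8) of the AAUACUG reads in replicate 1 and 7.63% (4.94 to 11.6) in replicate 2. Mir200c gave 30.1% (29.0 to 31.3) and 67.9% (61.8 to 73.4), and Mir429 31.2% and 24.5%. Thus the gene with the largest share of that seed's reads was Mir200b in replicate 1 and Mir200c in replicate 2. These counts add up both arms of a hairpin, of which the 3′ arm of this family carries the seeds given above.

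Noncoding hosts with a promoter in the RefSeq table were Gm13648 for the Mir200b cluster and Mirc35hg for the Mir183 cluster. Their promoters, from 250 bases before the start to 50 after it, are shown as the sequence context of both clusters, with each CACCTG box in capitals. No value of this study was measured at them, and a link to the difference between the animals was not tested. The RefSeq promoter of Ttll10 (chr4:156050768-156051067) lies downstream of the 3 hairpins and is not shown. CACCTG and its reverse complement CAGGTG were searched, which covers both strands.

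Gm13648, chr4:156059753-156060052, minus strand: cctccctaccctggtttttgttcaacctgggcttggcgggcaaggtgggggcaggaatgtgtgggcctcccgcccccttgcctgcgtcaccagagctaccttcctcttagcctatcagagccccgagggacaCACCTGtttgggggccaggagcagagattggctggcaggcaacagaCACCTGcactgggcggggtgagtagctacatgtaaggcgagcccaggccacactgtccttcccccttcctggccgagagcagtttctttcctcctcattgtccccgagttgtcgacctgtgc
Mirc35hg, chr6:30174076-30174375, minus strand: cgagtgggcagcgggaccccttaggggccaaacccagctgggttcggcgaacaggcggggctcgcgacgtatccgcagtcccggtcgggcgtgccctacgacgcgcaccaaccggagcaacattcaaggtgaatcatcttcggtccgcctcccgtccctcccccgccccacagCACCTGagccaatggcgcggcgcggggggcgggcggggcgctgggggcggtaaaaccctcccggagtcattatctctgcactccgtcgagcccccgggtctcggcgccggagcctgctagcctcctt

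The Gm13648 promoter holds 2 CACCTG boxes, which begin 118 and 72 bases before the start, and that of Mirc35hg holds 1, which begins 77 bases before it. Of the 32851 promoters of this length in the table, 20.2% hold CACCTG or CAGGTG at least once and 2.88% at least 2 times. The promoters shown have 61.7% and 70.3% G and C, above the median of 52.7% in the table. A match describes the letters of the window only.

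Markers of other cell types were compared between the libraries beside these genes. Of the other epithelial microRNAs, Mir203 of skin and other stratified epithelia had 531 and 259 CPM and was 2.08-fold higher in replicate 1 (log2 ratio -1.06, interval -1.18 to -0.93), and Mir205 had 13.8 and 8.69 CPM (-0.67, -1.45 to 0.05). The 7 choroid plexus and ciliated cell microRNAs summed to 5228 and 2794 CPM, and 3 of the 6 that reached a summed count of 10 had a difference of 2-fold or more towards replicate 1. These were Mir34c (748 and 289 CPM), Mir34b (14.3 and 6.16 CPM) and Mir449c (16 reads and 1 read). Such a difference was seen in 67 of all 525 genes that reached this count (12.8%). Mir449a, of multiciliated cells, had 3168 and 1754 CPM, Mir204 had 1288 and 739, and Mir211 had 3.94 and 5.07. The 5 microRNAs in introns of Htr2c, a serotonin receptor of choroid plexus and neurons, summed to 1080 and 205 CPM. Mir1298 gave most of that sum, with 957 and 147 CPM, and was 6.59-fold higher in replicate 1. The other genes of that list differed less where reads were more than a few. Mir448 was 2.35-fold and Mir1264 2.32-fold higher in replicate 1. Mir764 had 11.8 and 10.1 CPM (log2 ratio -0.23, interval -0.98 to 0.49). None of these lists had a gene at 0 in both libraries.

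The sums of the other lists were higher in replicate 1 for some and in replicate 2 for others. The gut, liver, pancreas and pituitary list summed to 491 and 349 CPM over 9 genes, with Mir194-1 at 0. Its genes went both ways, with a median log2 ratio of -0.39 over the 7 that reached a summed count of 10. Mir375, of endocrine cells, was 2.14-fold higher in replicate 1 and was the only 1 of these 7 to reach 2-fold. Mir194-2 was at -0.77 (interval -1.18 to -0.38). Mir122 (0.30, 0.02 to 0.57) and Mir217 (0.44, 0.15 to 0.72) were higher in replicate 2. As sums, neuron-enriched microRNAs were 1.33-fold and the 4 progenitor microRNAs 1.47-fold higher in replicate 1. Mir92b gave most of the progenitor sum (5396 and 3629 CPM). In log2 ratio, Mir9-1 was at -0.46 (interval -0.75 to -0.18) and Mir9-3 at 0.11 (-0.06 to 0.27), and Mir9-2 had 9 and 2 reads. These Mir9 genes are numbered copies, so reads mapped to several places may be missing from their counts. The 13 neuron-enriched genes went both ways, with a median log2 ratio of -0.16. At 2-fold or more, Mir128-1 and Mir124a-3 (9 and 2 reads) were higher in replicate 1, and Mir153 and Mir124a-1 (5 and 10 reads) in replicate 2. The log2 intervals of Mir124a-3 (-5.07 to 0.45) and Mir124a-1 (-0.34 to 3.25) include equal levels, and their shared mature strand leaves both counts uncertain. The sums of mesenchyme and meninges (223 and 197 CPM), leukocytes (514 and 472) and hindbrain and spinal cord (70.3 and 79.3) were within 1.15-fold of each other, with Mir199a-1 and Mir196a-1 at 0. Their members went apart: in log2 ratio, Mir214 was at -0.28 and Mir199b at 1.13, and among leukocyte genes Mir223 was at -0.96 and Mir142 at 0.63. Of the 6 striated muscle microRNAs, Mir206 had 35.2 and 14.1 CPM (log2 ratio -1.32), and the other 5 were at 0. Reads mapped to several places were assigned to no gene. A 0 at a gene with a numbered copy, as for Mir1a-1, Mir133a-1, Mir194-1, Mir199a-1 and Mir196a-1, may thus not be an absence. Red cell microRNAs were 9.01-fold higher in replicate 2 (60.2 and 550 CPM), and vessel microRNAs 1.44-fold (16319 and 23815 CPM). Mir451a gave most of the red cell difference (16.9 and 491 CPM), Mir144 had 6.47 and 28.6 CPM, and Mir486 had 36.8 and 30.4 CPM. In the vessel list, Mir126a had 12842 and 19722 CPM and Mir145a was 1.45-fold higher in replicate 1. The sum of the Mir200 family differed by 20.8-fold, more than that of any of the 12 lists, and that of the Mir183 cluster by 7.30-fold, less than the red cell sum. The part of any of these cells in the difference of the 8 genes was not tested.

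**Figure D4:**
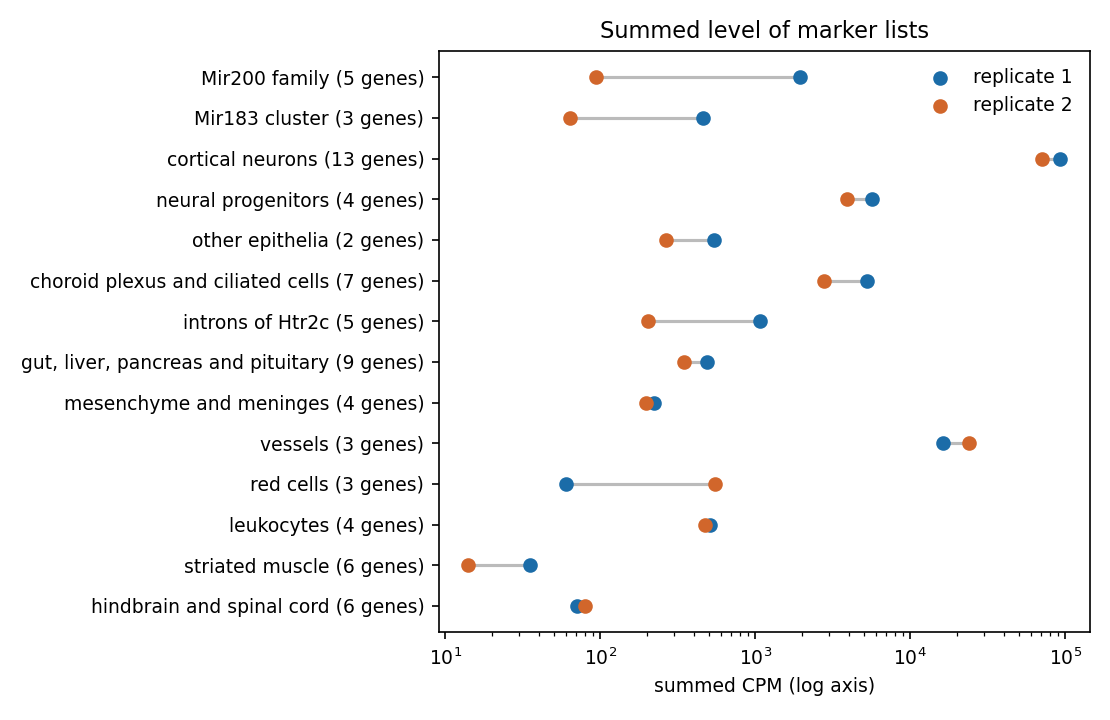
Summed CPM (log axis) of the Mir200 family, the Mir183 cluster and 12 marker lists in replicate 1 (blue) and replicate 2 (orange), with the number of genes in brackets and a grey line joining the libraries. The family (1930 and 93.8 CPM) and the cluster (458 and 63.4 CPM) are higher in replicate 1, and the red cell list is higher in replicate 2.

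The 6 genes outside the set whose log2 ratio was nearest to the median of the members, over 2 libraries and a summed count of 100 or more, were Mir26a-2 (-4.42), Mir1298 (-2.72), Mir22 (-1.97), Mir140 (-1.71), Mir487b (-1.63) and Mir3068 (-1.53). With 2 libraries this likeness rests on a single ratio for each gene. Mir26a-2, with 912 and 33 reads, shares all 22 bases of its 5′ mature strand with Mir26a-1, so its count is uncertain. Mir1298 had 3401 and 405 reads. The distance of the 6 genes from the median of -3.66 over all 8 members ran from 0.76 to 2.14. At a summed count of 100 or more, which leaves out Mir96, the members' median was -4.13.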

How the data were processed

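The deposited tables hold raw read counts per microRNA gene, 1 per library and without pooling or normalization, on mm10 with GENCODE M21, per the notes beside the files. The aligner, counter and filters are not given in the sources used here. The tables have no header, and the layout and values were read as reads of both strands, of the annotated strand (used here) and of the opposite strand. A gene is counted over its hairpin, both arms together, and reads mapped to several places stand outside the genes. Mapping of CAST alleles was not tested.

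All 2202 gene IDs matched M21. CPM, TMM factors from all genes (edgeR 4.0.16), log2 ratios with 0.5 added and Wilson, Clopper-Pearson and conditional odds ratio intervals were computed here. Sequences came from RefSeq tables of GRCm38.p6. Named genes were the 8 members, microRNA genes within 10 kb or with a shared seed, up to 4 leading genes of each of 12 marker lists, and the 6 genes nearest in ratio. Mir211, Mir449c, Mir153, the Mir124a copies and the listed genes at 0 were named after their values were seen. Members and lists were chosen with earlier results of these data known. Alternatives covered normalization, strand, count minimum, count added, fold, denominator, detection and leaving out a replicate.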

Additional observations from a re-analysis of the deposited data

How the results depend on the processing

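All 8 members stayed at least 2-fold higher in replicate 1 under RLE factors, library size alone, counts of both strands, 1 added to each count and no minimum beyond a read in either library. With a summed count of 100 or more the number was 7, since Mir96 drops out. The TMM factors were 0.994 and 1.006 and the RLE factors 0.997 and 1.003. On the opposite strand Mir183 had 3 reads, Mir182 had 5 and the other members 0. Changes of normalization or strand could therefore move these ratios little. The log2 ratio of Mir200b ranged from -6.67 to -6.64 over the changes of normalization, strand and count added, and that of Mir96 from -1.85 to -1.65. The number of all genes at least 2-fold higher in replicate 1, 67, was 146 with a read in either library and 34 with a summed count of 100 or more, and 14 genes were at least 4-fold higher. Detected members numbered 7 at 1 CPM and 8 with a read in both libraries. The share of the Mir200 family was 0.00938% without replicate 1 and 0.193% without replicate 2, and that of the Mir183 cluster 0.00634% and 0.0458%. Over all reads of a library in place of microRNA counts, the shares were 0.0307% and 0.00785%, against 0.101% and 0.0261%. Depth limits Mir96, Mir141 and Mir200a, with 2, 4 and 6 reads in replicate 2.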
